A study of Mus musculus with 13 samples.

Results

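The genes described here encode the receptor chains of the IL-6 and IL-12 cytokine families that mouse T cells are known to use: Il6st, Il6ra, Il27ra, Il12rb1, Il12rb2 and Il23r. They were chosen by symbol, with earlier results of these data known. They are 6 of the 18649 genes measured by RNA-seq in sorted CD4 T cells of the mouse spleen. All 6 passed the minimum level for testing, set on the mean over all populations, as did 14177 genes in all. The study compared 3 sorted populations. PD1hi cells (3 libraries) were CD4+, high for the surface receptor PD-1 and negative for a GFP reporter of Foxp3, the transcription factor of regulatory T cells. Treg cells (5 libraries) were CD4+, negative for PD-1 and positive for the reporter. Tconv cells (5 libraries) were CD4+ and negative for both. By the sample titles, every population was sorted in experiments 3, 5 and 6. The sources used here give no strain, age, treatment or number of pooled animals. A sort on PD-1 takes in every Foxp3-negative cell that carries much of it, and the Treg gate leaves out regulatory cells that carry PD-1.

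These receptors work as pairs of chains. Il6st encodes gp130, the shared signalling chain of the IL-6 family, which joins the IL-6 receptor chain Il6ra to bind IL-6 and the chain Il27ra to bind IL-27. Il12rb1 is shared by the other family: with Il12rb2 it forms the receptor of IL-12, which drives type 1 helper cells through STAT4, and with Il23r that of IL-23, which sustains type 17 helper cells through STAT3. The signalling chains among them are bound by JAK kinases, which activate STAT transcription factors once the cytokine is bound.

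Il12rb2 and Il23r are neighbouring coding genes on the minus strand of mouse chromosome 6, yet they had different patterns over the populations, so the sequences before their starts are shown. Both are from RefSeq (GRCm38.p6, minus strand, 5′ to 3′), at chr6:67376294-67376438 for the 145 bases before Il12rb2 that lie outside its annotated span, and at chr6:67491856-67492105 for the 250 bases before Il23r. Capitals mark TTCNNNGAA, the core letters that STAT factors are known to bind, which read the same on both strands.
Il12rb2: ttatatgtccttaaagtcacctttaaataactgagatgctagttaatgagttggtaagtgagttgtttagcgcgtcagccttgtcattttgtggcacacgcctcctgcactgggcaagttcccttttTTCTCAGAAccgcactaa
Il23r: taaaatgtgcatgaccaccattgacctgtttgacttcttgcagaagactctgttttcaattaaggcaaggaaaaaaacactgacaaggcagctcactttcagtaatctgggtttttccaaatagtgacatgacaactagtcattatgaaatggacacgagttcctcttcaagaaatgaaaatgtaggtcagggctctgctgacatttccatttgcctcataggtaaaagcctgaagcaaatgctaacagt
The motif stood once before Il12rb2 and not in the 250 bases before Il23r, Il6st or Il6ra. It stood in 2306 of 32851 windows of 250 bases (7.02%). A window was found for 4 of the 6 genes. A match is a description of the letters.

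Levels are scaled counts, that is reads divided by the size factor of the library, and each population has 3 values, 1 per experiment, with libraries of the same experiment and population averaged. Depth ran from 15971126 to 24216463 reads in genes. The PD-1 gene Pdcd1 averaged 37372 ± 3290 in PD1hi, 1955 ± 38.5 in Treg and 1132 ± 136 in Tconv (mean ± SD, n = 3 each). Foxp3 was at 106 ± 33.4 in PD1hi, at 15889 ± 513 in Treg and at 291 ± 35.8 in Tconv, so both genes follow the sort. The T cell gene Cd3e was at 29920 ± 1850 in PD1hi, at 23540 ± 400 in Treg and at 25714 ± 211 in Tconv. On the third principal component (7.94% of variance), 2 libraries stood apart, PD1hi of experiment 6 with a score of 52.0 and the second one of Treg in experiment 3 with 51.7. The labels do not say whether replicate libraries or experiments come from separate animals, so p-values reflect only how much these samples differ, which may be technical. Fewer cells of a type and less RNA per cell cannot be told apart in such bulk samples.

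**Figure D1:**
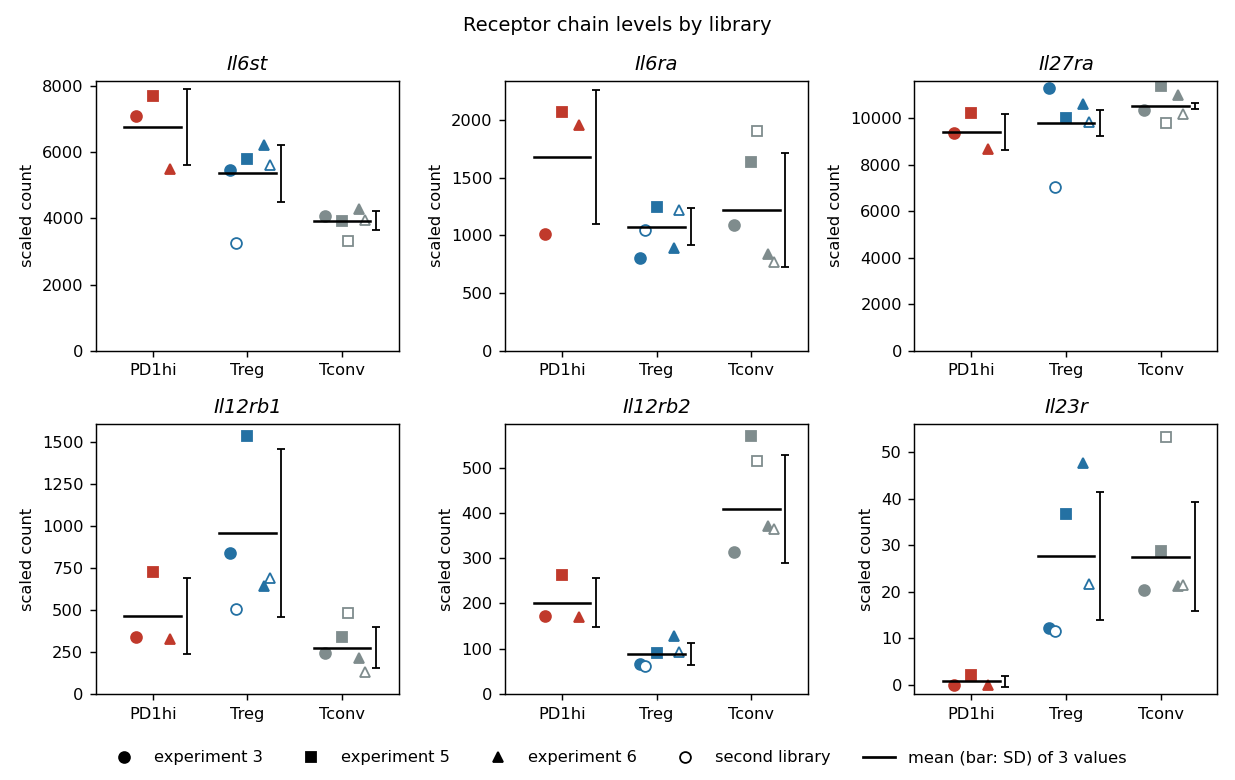
Scaled count of each receptor gene (y axes, linear, 1 panel per gene) in the PD1hi, Treg and Tconv libraries; markers show the experiment, open markers the second library of an experiment, lines the mean and bars the SD of 3 values. Il12rb2 was at 170 to 264 in PD1hi, 62.1 to 128 in Treg and 314 to 571 in Tconv, and Il23r was at 0, 2.02 and 0 in PD1hi.

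PD1hi cells had more of the shared chain Il6st than Tconv cells, 1.71-fold, less of the IL-12 chain Il12rb2, and almost no reads of the IL-23 chain Il23r. Il6ra, Il27ra and Il12rb1 did not pass the test in this comparison. So 3 of the 6 genes passed (1 higher, 2 lower) at an adjusted p under 0.05 in limma, where 26.1% of all tested genes passed, 14.2% higher and 11.9% lower. The median log2 fold change of the 6 genes was 0.15, against 0.00 over all tested genes. Il23r, which counts in both comparisons with PD1hi, reached the minimum level for testing only through its Treg and Tconv values. The count was 2 without the PD1hi value of experiment 3 or 6, or without the Tconv value of experiment 5 or 6. It was also 2 at a minimum mean of 50, where Il23r was not tested, and 4 with the experiment as a replicate block.

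Against Treg cells, PD1hi cells had 2.28-fold more Il12rb2 and again almost no Il23r, and the other 4 genes did not pass. These 2 of 6 (1 higher, 1 lower) stand beside 16.5% of all tested genes, 8.16% higher and 8.39% lower. The median log2 fold change was 0.14 for the 6 genes, against -0.01 over all tested genes. The count was 1 without the Treg value of experiment 3, and 3 without the PD1hi value of experiment 6 or the PD1hi value of experiment 3. It was also 1 at a minimum mean of 50, and 3 with the replicate block or with the first library only.

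Treg cells had 3.40-fold more of the shared chain Il12rb1 than Tconv cells and less Il12rb2, at a log2 fold change of -2.20. The other 4 genes did not pass, so the count was 2 of 6 (1 higher, 1 lower), where 14.4% of all tested genes passed, 8.73% higher and 5.66% lower. The median log2 fold change was -0.09 for the 6 genes, against 0.01 over all tested genes. The count was 3 with the second Treg library of experiment 3 left out and 1 if either Treg of experiment 5 or Tconv of experiment 6 was left out. It was also 3 with libraries scaled to equal totals, with the first library only and with only the 2 groups in the fit. The same held without the PD1hi value of experiment 6 or the Treg value of experiment 3. The 3 comparisons share their populations, so their values are not independent of each other.

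**Figure D2:**
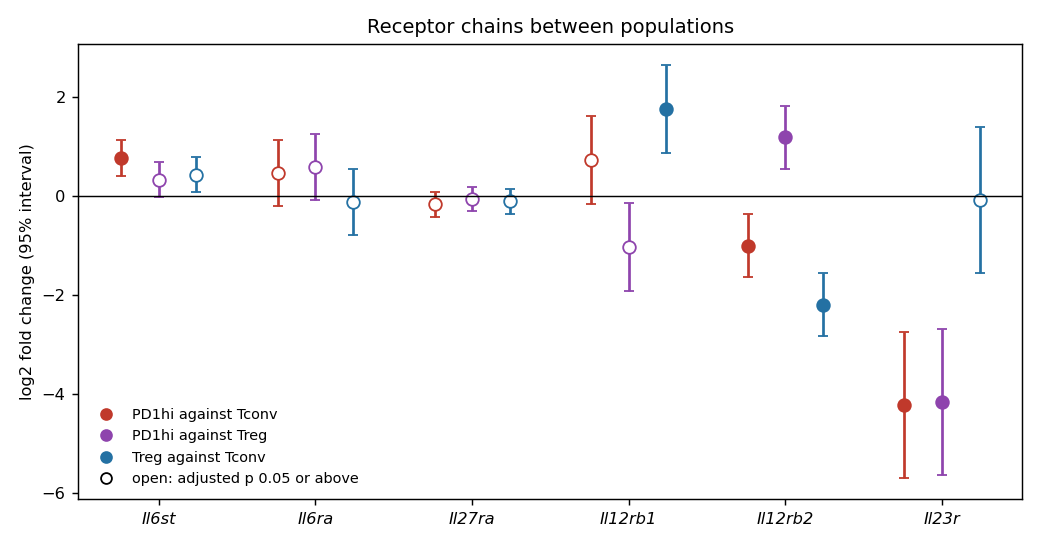
Log2 fold change (y axis, with 95% interval from limma) of each receptor gene (x axis) in PD1hi against Tconv, PD1hi against Treg and Treg against Tconv; filled points have an adjusted p under 0.05. Il23r lies lowest, at -4.23 in PD1hi against Tconv and -4.16 in PD1hi against Treg, and Il27ra lies nearest to 0 in each of the comparisons with PD1hi.

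The shared IL-6 family chain was taken first. Il6st (ENSMUSG00000021756, chromosome 13, next to the coding gene Il31ra) was at 7108, 7714 and 5489 in the PD1hi libraries of experiments 3, 5 and 6. It was at 5476 and 3271 in the Treg libraries of experiment 3, 5788 in that of experiment 5, and 6218 and 5607 in those of experiment 6. In Tconv it was at 4073 in experiment 3, 3920 and 3302 in experiment 5, and 4286 and 3952 in experiment 6. Every PD1hi library lay above every Tconv library, while the PD1hi library of experiment 6 lay within the range of the Treg libraries, and the second Treg library of experiment 3 lay below the lowest Tconv library.

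The mean of Il6st was 6770 ± 1150 in PD1hi, 5358 ± 855 in Treg and 3934 ± 281 in Tconv (SD, n = 3 each). The log2 fold change was 0.77 ± 0.16 (SE) in PD1hi against Tconv, with a limma adjusted p of 0.00387. It was 0.80, 1.09 and 0.41 within experiments 3, 5 and 6, so the rise stood in 3 of 3 experiments. In PD1hi against Treg, Il6st was at 0.34 ± 0.16 (limma adjusted p = 0.206), and the PD1hi value of experiment 6 was different from its Treg value by -0.11. Without that PD1hi value the log2 fold change was 0.48 (limma adjusted p = 0.0387). Between Treg and Tconv the difference in Il6st depended on the processing: 0.43 ± 0.16 did not pass (limma adjusted p = 0.108), although the 3 values of each population did not overlap. It passed with the second Treg library of experiment 3 left out (0.54, limma adjusted p = 0.0203), with libraries scaled to equal totals (0.50, 0.0378), with the first library only (0.51, 0.0301) and with only the 2 groups in the fit (0.43, 0.0477). It also passed without the Treg value of experiment 3 (0.57, 0.0457) or the PD1hi value of experiment 6 (0.43, 0.0350).

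Il6ra (ENSMUSG00000027947, chromosome 3), the chain that binds IL-6, varied as much within PD1hi and Tconv as between the populations. It was at 1015, 2069 and 1956 in the PD1hi libraries of experiments 3, 5 and 6. The Treg libraries ran from 800 to 1240 with a median of 1044, and the Tconv libraries from 772 to 1900 with a median of 1089. The PD1hi library of experiment 3 therefore lay within both other populations, and the 3 ranges overlapped.

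Mean Il6ra was 1680 ± 579 in PD1hi, 1073 ± 160 in Treg and 1220 ± 496 in Tconv (SD, n = 3 each). In PD1hi against Tconv the log2 fold change was 0.47 ± 0.31 (95% interval -0.20 to 1.14, limma adjusted p = 0.299). Within experiments it was -0.10, 0.23 and 1.28, so the largest part came from experiment 6. In PD1hi against Treg it was 0.59 ± 0.31 (limma adjusted p = 0.242), in the same direction in 3 of 3 experiments, and without the PD1hi value of experiment 3 it was 0.92 (limma adjusted p = 0.0472). Treg against Tconv gave -0.12 ± 0.31 (95% interval -0.79 to 0.55, limma adjusted p = 0.869).

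Il27ra (ENSMUSG00000005465, chromosome 8), the IL-27 chain that pairs with gp130, had the highest level per length of the 6 genes and the least spread. It was at 9344, 10217 and 8687 in the PD1hi libraries of experiments 3, 5 and 6. The Treg libraries ran from 7036 to 11287 with a median of 10002, the lowest being the second library of experiment 3, and the Tconv libraries ran from 9782 to 11376 with a median of 10357. The libraries of the 3 populations overlapped.

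Mean Il27ra was 9416 ± 767 in PD1hi, 9797 ± 562 in Treg and 10513 ± 136 in Tconv (SD, n = 3 each). The log2 fold change was -0.16 ± 0.12 in PD1hi against Tconv (95% interval -0.41 to 0.09, limma adjusted p = 0.344) and -0.06 ± 0.12 in PD1hi against Treg (-0.31 to 0.19, 0.800). Treg against Tconv gave -0.10 ± 0.12 (-0.36 to 0.15, 0.665). Intervals of this width allow a difference of up to 0.41 on the log2 scale between PD1hi and Tconv.

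The shared chain of the other family had a different order. Il12rb1 (ENSMUSG00000000791, chromosome 8) was at 339, 723 and 325 in the PD1hi libraries of experiments 3, 5 and 6. It was at 839 and 507 in the Treg libraries of experiment 3, 1534 in that of experiment 5, and 642 and 691 in those of experiment 6. In Tconv it was at 244 in experiment 3, 340 and 481 in experiment 5, and 214 and 132 in experiment 6. The libraries of experiment 5 were the highest within each population, and every Treg library lay above every Tconv library.

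Mean Il12rb1 was 463 ± 226 in PD1hi, 958 ± 499 in Treg and 276 ± 122 in Tconv (SD, n = 3 each). In Treg against Tconv it rose by 1.77 ± 0.41 on the log2 scale (limma adjusted p = 0.0117), by 1.46, 1.90 and 1.94 within experiments 3, 5 and 6. The call was lost without the Treg value of experiment 5 (1.37, limma adjusted p = 0.0537) and without the Tconv value of experiment 6 (1.48, 0.0571). PD1hi lay between the others: the log2 fold change was 0.73 ± 0.41 against Tconv (limma adjusted p = 0.222) and -1.03 ± 0.41 against Treg (0.118). Within experiments 3, 5 and 6 these were 0.47, 0.82 and 0.91 against Tconv, and -0.99, -1.08 and -1.03 against Treg. With the experiment as a replicate block, both passed, at 0.73 (limma adjusted p = 0.00770) against Tconv and -1.03 (0.00189) against Treg. The difference from Treg also passed with the first library only (-1.12, 0.0496) and without the PD1hi value of experiment 5 (-1.41, 0.0421).

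The summed level of 12 B cell marker genes, most of it from the immunoglobulin genes Ighm and Igkc, was highest in Treg and lowest in Tconv, as Il12rb1 was, but single genes of the list differed in their order. The sum was 41966 to 55832 in PD1hi, 68582 to 82321 in Treg and 23738 to 27371 in Tconv, with no gene of the list at 0 in a population. Of 8 tested, 4 rose and none fell in PD1hi against Tconv (also 4 and 0 at an unadjusted limma p under 0.05), 1 rose and 2 fell in PD1hi against Treg, and 3 rose and none fell in Treg against Tconv (4 and 0). The heavy chain gene Ighm was at 36646 ± 2560 in PD1hi, at 65037 ± 3997 in Treg and at 21764 ± 1496 in Tconv (SD, n = 3 each). The light chain gene Igkc was at 10688 ± 4695 in PD1hi, at 9020 ± 2902 in Treg and at 3672 ± 884 in Tconv, so that its mean was highest in PD1hi. Cd22, a B cell surface receptor, was also highest in PD1hi, at 1675 ± 243, against 241 ± 30.7 in Treg and 178 ± 51.8 in Tconv. These 3 genes were named after their values were seen. Plasma cell genes summed to 5821 to 9096 in PD1hi, 8086 to 10833 in Treg and 3040 to 3617 in Tconv. The part of B cells and plasma cells in the difference of Il12rb1 was not tested.

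Il12rb2 (ENSMUSG00000018341, chromosome 6) encodes the signalling chain of the IL-12 receptor. In the fit without a replicate block, it alone of the 6 genes passed in all 3 comparisons. With the experiment as a block, Il12rb1 passed in all 3 as well. Il12rb2 was at 173, 264 and 170 in the PD1hi libraries of experiments 3, 5 and 6. It was at 65.5 and 62.1 in the Treg libraries of experiment 3, 90.3 in that of experiment 5, and 128 and 92.7 in those of experiment 6. In Tconv it was at 314 in experiment 3, 571 and 516 in experiment 5, and 372 and 365 in experiment 6. No library of one population overlapped with another: every PD1hi library lay above every Treg library and below every Tconv library.

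Mean Il12rb2 was 202 ± 53.3 in PD1hi, 88.2 ± 23.4 in Treg and 409 ± 120 in Tconv (SD, n = 3 each). It fell by 1.0 ± 0.29 on the log2 scale in PD1hi against Tconv (limma adjusted p = 0.0238), at -0.86, -1.04 and -1.11 within experiments 3, 5 and 6. It no longer passed without PD1hi of experiment 3 (limma adjusted p = 0.0680) or 6 (0.0542), or without Tconv of experiment 5 (0.104) or 6 (0.0566). In PD1hi against Treg it rose by 1.19 ± 0.29 (limma adjusted p = 0.0143), by 1.43, 1.54 and 0.61 within experiments 3, 5 and 6. Without PD1hi of experiment 5 (0.0636), or Treg of experiment 3 (0.0603), it no longer passed. Il12rb2 fell by 2.20 ± 0.29 in Treg against Tconv (limma adjusted p = 0.000304), and this call held in all 9 fits that left out 1 value.

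The summed level of 8 genes that mark CD8 T cells, NK cells and innate-like T cells had the same order as Il12rb2, though not every gene of the list did. The sum was 2597 to 3841 in PD1hi, 1064 to 1370 in Treg and 5811 to 8025 in Tconv. Of the 7 genes of that list tested, none rose and 3 fell in PD1hi against Tconv, 1 rose and 1 fell in PD1hi against Treg, and none rose and 5 fell in Treg against Tconv. At an unadjusted limma p under 0.05, 0 were higher and 4 lower, 4 higher and 1 lower, and 0 higher and 6 lower in these comparisons. The CD8 chain Cd8a was at 6.78 ± 7.74 in PD1hi, at 5.55 ± 6.24 in Treg and at 8.43 ± 8.39 in Tconv, and the NK cell receptor gene Klrb1c at 262 ± 92.5 in PD1hi, at 141 ± 55.5 in Treg and at 984 ± 59.0 in Tconv (SD, n = 3 each). Nkg7, a cytotoxic granule gene with the highest level of the list, was at 2567 ± 677 in PD1hi, at 662 ± 114 in Treg and at 4111 ± 1264 in Tconv. The CD8 chain gene Cd8b1 was lowest in PD1hi, at 98.1 ± 40.2, against 260 ± 55.1 in Treg and 424 ± 37.7 in Tconv. The NK cell receptor genes Klrk1 (74.4 in PD1hi, 81.7 in Treg and 595 in Tconv) and Ncr1 (21.9 in PD1hi, 30.6 in Treg and 33.3 in Tconv) also had their lowest mean in PD1hi. Klrd1, of the same list, had the order of Il12rb2 (81.3 in PD1hi, 29.9 in Treg and 336 in Tconv). So did Zbtb16 (73.8 in PD1hi, 18.8 in Treg and 181 in Tconv). Nkg7, Cd8b1, Klrk1, Ncr1, Klrd1 and Zbtb16 were named after their values were seen. No gene of the list was at 0 in a population, and their part in the differences of Il12rb2 was not tested.

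A second limit of Il12rb2 is its overlap with a neighbour. In GENCODE M21, 1519 of its 3794 exon bases (40.0%) are shared with exons of Serbp1, an RNA-binding protein gene on the opposite strand, and the sources used here do not say whether the counting used strand. Reads of the 2 genes could then not be told apart in the shared bases. Serbp1 was at 4513 ± 231 in PD1hi, at 4832 ± 555 in Treg and at 5157 ± 618 in Tconv (SD, n = 3 each). Its log2 fold change was -0.19 in PD1hi against Tconv, -0.09 in PD1hi against Treg and -0.09 in Treg against Tconv, with limma adjusted p of 0.348, 0.714 and 0.749. Of the other members, Il6ra shares 242 exon bases (2.80%) with an antisense gene and Il27ra 2 bases with Palm3.

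Il23r (ENSMUSG00000049093, chromosome 6), the chain that with Il12rb1 binds IL-23, was nearly without reads in PD1hi. It was at 0, 2.02 and 0 in the PD1hi libraries of experiments 3, 5 and 6, from 2 reads in all. It was at 12.2 and 11.5 in the Treg libraries of experiment 3, 36.7 in that of experiment 5, and 47.8 and 21.6 in those of experiment 6. In Tconv it was at 20.2 in experiment 3, 28.7 and 53.3 in experiment 5, and 21.3 and 21.4 in experiment 6. Every PD1hi library lay below every Treg and every Tconv library, and Treg and Tconv overlapped.

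Mean Il23r was 0.674 ± 1.17 in PD1hi, 27.7 ± 13.8 in Treg and 27.5 ± 11.7 in Tconv (SD, n = 3 each). Treg held 138 reads and Tconv 141. Only through its levels in Treg and Tconv did Il23r reach the minimum mean of 10 for testing. Scaled by the summed size factors, Il23r was 36.7-fold higher in Treg than in PD1hi (95% counting interval 9.96 to 306) and 41.5-fold higher in Tconv than in PD1hi (11.3 to 346). These intervals cover counting error only. The log2 fold changes, which understate the change of so low a gene, were -4.16 ± 0.68 against Treg (limma adjusted p = 0.000989) and -4.23 ± 0.68 against Tconv (0.000603), in the same direction in 3 of 3 experiments. For Treg against Tconv the value was -0.07 ± 0.68 (95% interval -1.55 to 1.41, limma adjusted p = 0.967), so a difference of over 2-fold either way was within the interval.

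Beside Il23r, the myeloid gene Itgam was at 13.7 ± 8.26 in PD1hi, at 109 ± 36.6 in Treg and at 124 ± 46.1 in Tconv (SD, n = 3 each). The macrophage gene Cd68, named after its values were seen, had the opposite order, at 171 ± 58.9 in PD1hi, at 51.2 ± 17.8 in Treg and at 47.9 ± 14.2 in Tconv. Of 11 myeloid and dendritic genes tested, Cd68 rose and Itgam fell in PD1hi against Tconv and in PD1hi against Treg, and none passed in Treg against Tconv by limma, also at an unadjusted p under 0.05. The summed level of the 13 genes of the list measured overlapped between populations, at 696 to 1219 in PD1hi, 410 to 1535 in Treg and 476 to 1958 in Tconv, with no gene of the list at 0. The part of such cells in the level of Il23r was not tested.

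Levels of different genes were compared per kb of annotated exon, as scaled count per kb. In PD1hi, Il27ra was highest at 2694 ± 220, then Il6st at 610 ± 104, Il6ra at 194 ± 67.0, Il12rb1 at 113 ± 55.1, Il12rb2 at 53.3 ± 14.1 and Il23r at 0.271 ± 0.469 (SD, n = 3 each). In Treg the order was Il27ra at 2803 ± 161, Il6st at 483 ± 77.0, Il12rb1 at 233 ± 122, Il6ra at 124 ± 18.5, Il12rb2 at 23.2 ± 6.17 and Il23r at 11.1 ± 5.55. In Tconv it was Il27ra at 3008 ± 38.9, Il6st at 354 ± 25.3, Il6ra at 141 ± 57.3, Il12rb2 at 108 ± 31.6, Il12rb1 at 67.2 ± 29.7 and Il23r at 11.1 ± 4.70. Neighbours in this order whose ranges overlapped were Il6ra and Il12rb1 in PD1hi, and Il6ra and Il12rb2, and Il12rb2 and Il12rb1, in Tconv. By their means, the places of Il12rb1 and Il6ra were exchanged between PD1hi and Treg, and Il12rb2 stood below its partner Il12rb1 in PD1hi and Treg and above it in Tconv. The length used for Il12rb2 takes in the 1519 of 3794 exon bases that it shares with Serbp1. Whether its place changes without them was not tested.

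The balance of the chains of each receptor was then compared as the log2 ratio of their scaled counts within each value. Il12rb2 over Il12rb1, the chains of the IL-12 receptor, was at -0.97, -1.45 and -0.93 in PD1hi, -3.38, -4.07 and -2.58 in Treg, and 0.36, 0.40 and 1.09 in Tconv (experiments 3, 5 and 6). The 3 populations did not overlap, with means of -1.12 ± 0.29 in PD1hi, -3.34 ± 0.75 in Treg and 0.62 ± 0.41 in Tconv (SD, n = 3 each). These levels are not per length, so the differences between populations are the result. They were -1.74 in PD1hi against Tconv, 2.23 in PD1hi against Treg and -3.96 in Treg against Tconv.

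Il27ra over Il6st, the chains of the IL-27 receptor, was at 0.39, 0.41 and 0.66 in PD1hi, 1.07, 0.79 and 0.79 in Treg, and 1.35, 1.55 and 1.36 in Tconv. Here too no population overlapped with another, and the difference was -0.93 in PD1hi against Tconv, -0.39 in PD1hi against Treg and -0.54 in Treg against Tconv. Il23r over Il12rb1 had means of -8.22 ± 0.28 in PD1hi, -5.10 ± 0.78 in Treg and -3.26 ± 0.28 in Tconv (SD, n = 3 each), again without overlap, and its values in PD1hi depend on the added 1. Il6ra over Il6st overlapped between all populations, at -2.06 ± 0.68 in PD1hi, at -2.32 ± 0.15 in Treg and at -1.76 ± 0.67 in Tconv.

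With 3 values against 3, an exact 2-sided permutation test cannot go below 0.1. All 9 comparisons of the 3 pairs without overlap were at that smallest value, 0.1 in the exact permutation test, or 0.133 after Benjamini-Hochberg adjustment over 12 tests. Il6ra over Il6st gave p = 0.6 in PD1hi against Tconv, 0.5 in PD1hi against Treg and 0.3 in Treg against Tconv in the exact permutation test.

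**Figure D3:**
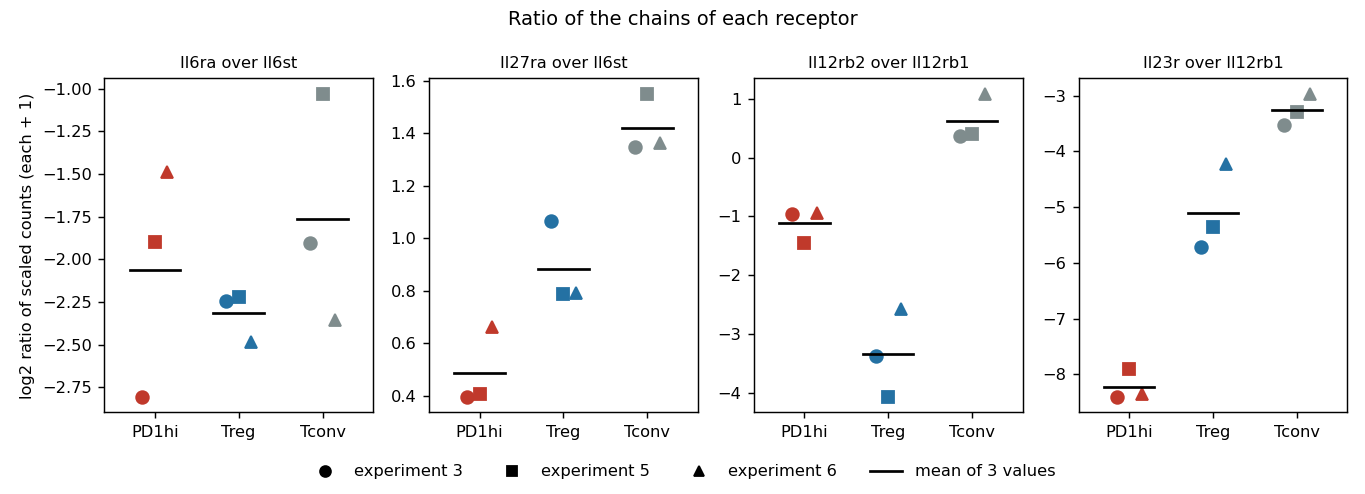
Log2 ratio of the scaled counts of the chains of each receptor (y axes, 1 panel per pair, scales differ) in PD1hi, Treg and Tconv; markers show experiments 3, 5 and 6 and lines the mean of 3 values. Il12rb2 over Il12rb1 lies between -1.45 and -0.93 in PD1hi, between -4.07 and -2.58 in Treg and between 0.36 and 1.09 in Tconv, while Il6ra over Il6st overlaps.

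Genes with the most similar pattern to each receptor gene were read from the Pearson correlation of log2(scaled count + 1) over the 9 values, which share populations and experiments. For Il6st these were Gpr155 (r = 0.97), Vwa5a (0.97) and Tlr4, a receptor of bacterial lipopolysaccharide (0.96). For Il6ra they were the lysosomal enzyme Hgsnat (0.97), Gm16517 (0.97) and the oxysterol receptor Nr1h2 (0.96). For Il27ra they were Ano6, a membrane lipid scramblase (0.98), Asb13 (0.96) and the kinase Jak1 (0.96). With libraries scaled to equal totals, the r of those last 3 with Il27ra was 0.59, 0.65 and 0.52. With the second Treg library of experiment 3 left out, their r with Il27ra was 0.88, 0.78 and 0.84.

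Il12rb1 was most like the kinase gene Mapkapk3 (r = 0.97), Ksr2 (0.95) and the TNF receptor Tnfrsf1b (0.94) over the 9 values. Il12rb2 was most like Ramp3, a partner of calcitonin family receptors (0.97), the chemokine receptor Cxcr6 (0.97) and Rabggta (0.96). With libraries scaled to equal totals, Ramp3 and Cxcr6 kept ranks 1 and 2 for Il12rb2, and Rabggta was at rank 117 (r = 0.86). Cxcr6 was at 2170 in PD1hi, at 696 in Treg and at 7981 in Tconv. Il23r was most like Cnp (0.99), Rwdd3 (0.99) and F2rl3, a thrombin receptor (0.98), and Cnp was at 4881 in PD1hi, at 10627 in Treg and at 10961 in Tconv. The pattern of Il23r rests on 2 reads in PD1hi. With 10 added in place of 1, Cnp, Rwdd3 and F2rl3 ranked 5, 3 and 4 for Il23r, at r = 0.955, 0.960 and 0.958.

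Among the receptor genes themselves, the highest correlation over the 9 values was between Il27ra and Il23r (r = 0.71) and the lowest between Il12rb1 and Il12rb2 (-0.64), the chains of the IL-12 receptor. The neighbours Il12rb2 and Il23r had r = 0.07.

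Few genes of the cytokines that bind these receptors could be tested. Of 15 ligand genes listed, 6 were in the table and 4 were tested, and of 5 other receptor chains, 4 were in the table and Il11ra1 alone was tested and did not pass. The median log2 fold change of the 4 ligands was 0.76 in PD1hi against Tconv, -0.53 in PD1hi against Treg and 0.54 in Treg against Tconv. Lif, which signals through gp130, was at 206 ± 6.50 in PD1hi, at 85.9 ± 47.0 in Treg and at 32.2 ± 2.82 in Tconv (SD, n = 3 each). It rose by 2.64 ± 0.34 in PD1hi against Tconv, by 1.38 ± 0.34 in PD1hi against Treg and by 1.26 ± 0.34 in Treg against Tconv (limma adjusted p = 0.000132, 0.0160 and 0.0280). Its own receptor chain Lifr was below the minimum for testing, at 7.88 in PD1hi, at 1.88 in Treg and at 8.07 in Tconv.

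Ebi3, a subunit of IL-27, was at 162 ± 19.1 in PD1hi, at 315 ± 84.0 in Treg and at 38.9 ± 8.73 in Tconv (SD, n = 3 each). It rose by 2.05 ± 0.28 in PD1hi against Tconv and by 2.97 ± 0.28 in Treg against Tconv, and fell by 0.92 ± 0.28 in PD1hi against Treg (limma adjusted p = 0.000188, 2.25e-05 and 0.0428). The last call was lost in 7 of 9 fits that left out 1 value, with a limma adjusted p of up to 0.148 without the Treg value of experiment 5, and with equal totals (0.0691). Osm, another gp130 cytokine, fell by 1.22 ± 0.28 in PD1hi against Tconv and fell by 1.04 ± 0.28 in PD1hi against Treg (limma adjusted p = 0.00650 and 0.0237), while Clcf1 did not pass. The fall of Osm against Treg was lost in 3 of 9 such fits, at 0.10 without the Treg value of experiment 5. Of the calls of Lif, that against Treg was lost in 2, at 0.0730 without the Treg value of experiment 6, and that of Treg against Tconv in 4, at 0.0943 without the Treg value of experiment 5.

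Of 11 JAK and STAT genes, which carry the signal of these receptors, 2 rose and 3 fell in PD1hi against Tconv, 2 rose and 1 fell in PD1hi against Treg, and none passed in Treg against Tconv, where 1 was higher at an unadjusted limma p under 0.05. Their median log2 fold change was 0.12, -0.07 and 0.18 in these comparisons, where 26.1%, 16.5% and 14.4% of all tested genes passed. Jak2, the kinase of the Il12rb2 and Il23r chains, was at 3340 ± 1229 in PD1hi, at 1188 ± 251 in Treg and at 1160 ± 47.2 in Tconv (SD, n = 3 each). It rose by 1.46 ± 0.23 against Tconv and by 1.45 ± 0.23 against Treg (limma adjusted p = 0.000573 and 0.000892).

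Stat4, the factor of the IL-12 signal, was at 8768 ± 1043 in PD1hi, at 4480 ± 333 in Treg and at 4740 ± 125 in Tconv (SD, n = 3 each), so that it was highest where Il12rb2 was in the middle. It rose by 0.88 ± 0.13 against Tconv and by 0.96 ± 0.13 against Treg (limma adjusted p = 0.000248 and 0.000184). Jak1, the kinase bound to gp130, fell by 0.53 ± 0.17 in PD1hi against Tconv (limma adjusted p = 0.0361). Stat6, named after its value was seen, fell by 0.48 ± 0.15 in the same comparison (0.0328). Stat3, the main factor of IL-6 and IL-23, did not pass, at 7454 ± 1141 in PD1hi, at 6751 ± 849 in Treg and at 5968 ± 382 in Tconv. It too was named after its values were seen. Without the PD1hi value of experiment 6, none of the 11 fell and 3 rose in PD1hi against Tconv, and 1 rose in Treg against Tconv. With libraries scaled to equal totals, Jak1 did not pass against Tconv (limma adjusted p = 0.0707). Without 1 value, the call of Jak1 against Tconv was lost in 6 of 9 fits, with a limma adjusted p of up to 0.114 without the Tconv value of experiment 3.

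Among 17 negative regulators of this signal, 3 rose and 2 fell in PD1hi against Tconv, 4 rose and 2 fell in PD1hi against Treg, and 3 rose and 2 fell in Treg against Tconv. The medians were 0.07, -0.07 and 0.16 in these comparisons, where 26.1%, 16.5% and 14.4% of all tested genes passed. Ptpn11, a phosphatase that binds gp130, was at 4970 ± 333 in PD1hi, at 443 ± 38.4 in Treg and at 640 ± 22.8 in Tconv (SD, n = 3 each). It rose by 2.95 ± 0.13 against Tconv and by 3.49 ± 0.13 against Treg (limma adjusted p = 7.81e-08 and 1.15e-08). Ptpn1 and Pias3 rose by 0.84 ± 0.14 and 0.84 ± 0.14 against Tconv, and the phosphatase Ptpn6 by 0.89 ± 0.13 against Treg. Cish, a suppressor of cytokine signals, fell by 1.49 ± 0.24 in PD1hi against Tconv and fell by 3.59 ± 0.24 in PD1hi against Treg, and rose by 2.10 ± 0.24 in Treg against Tconv. Its relative Socs2 fell by 1.85 ± 0.26 in PD1hi against Treg and rose by 1.91 ± 0.26 in Treg against Tconv, where Socs5 rose by 0.96 ± 0.20 and Ptpn6 fell by 0.83 ± 0.13. Of these, the highest limma adjusted p was 0.00668, for Socs5. The remaining calls, named after their values were seen, were Pias1 (-0.56) against Tconv, Ptpn1 (0.80) and Pias3 (0.58) against Treg, and Ptpn11 (-0.53) in Treg against Tconv. None of 4 genes of receptor shedding and trafficking passed in any comparison, although 1 was lower at an unadjusted limma p under 0.05 in PD1hi against Tconv and 1 in Treg against Tconv. Among them was Adam17, which can shed the IL-6 receptor chain, at 2663 ± 488 in PD1hi, at 2625 ± 297 in Treg and at 2589 ± 271 in Tconv. Without the PD1hi value of experiment 6, 1 of the 4 rose in each comparison with PD1hi.

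Genes known to respond to these cytokines moved in both directions, apart from the IL-27 list in Treg against Tconv. None of that list fell there, where 5.66% of all tested genes were lower and 8.73% higher. Of all tested genes, 26.1% passed in PD1hi against Tconv, 16.5% in PD1hi against Treg and 14.4% in Treg against Tconv. Of 16 IL-6 and STAT3 response genes, 5 rose and 5 fell in PD1hi against Tconv, 4 rose and 7 fell in PD1hi against Treg, and 7 rose and 2 fell in Treg against Tconv. Their medians were 0.06, -0.21 and 0.68, against 0.00, -0.01 and 0.01 over all tested genes. Bcl6, the factor of follicular helper cells, rose by 3.12 ± 0.19 in PD1hi against Tconv and by 3.23 ± 0.19 against Treg. The cytokine gene Il21 rose by 5.04 ± 0.36 against Tconv and by 10.25 ± 0.36 against Treg, and fell by 5.21 ± 0.36 in Treg against Tconv. Its level was 3296 ± 683 in PD1hi, 1.77 ± 0.93 in Treg and 104 ± 47.7 in Tconv (SD, n = 3 each). The size of its 2 changes with Treg therefore depends on the added 1. Il10 rose by 4.61 ± 0.61 in PD1hi against Tconv and by 4.70 ± 0.61 in Treg against Tconv. The chemokine receptor Ccr6, of the same list, fell by 4.76 ± 0.35 in PD1hi against Treg. In Treg against Tconv, Ccr6 rose by 2.55 ± 0.35 and the kinase Pim1 by 2.0 ± 0.37. The highest limma adjusted p of these calls was 0.00304, for Pim1 in Treg against Tconv.

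Of 16 IL-12 and STAT4 response genes, 4 rose and 6 fell in PD1hi against Tconv, 4 rose and 6 fell in PD1hi against Treg, and 5 rose and 4 fell in Treg against Tconv, with medians of -0.15, -0.42 and -0.05. The interferon gamma gene Ifng was at 1757 ± 320 in PD1hi, at 116 ± 61.4 in Treg and at 612 ± 225 in Tconv (SD, n = 3 each). It rose by 1.57 ± 0.36 in PD1hi against Tconv and by 4.03 ± 0.36 against Treg, and fell by 2.47 ± 0.36 in Treg against Tconv. The IL-18 receptor chain Il18r1 fell by 3.10 ± 0.34 and its partner Il18rap fell by 2.46 ± 0.23 in PD1hi against Tconv, where the stress sensor Gadd45b rose by 2.09 ± 0.32. The T-box factor Eomes rose by 2.32 ± 0.33 in PD1hi against Treg, while Il2ra fell by 6.17 ± 0.13 and the granzyme gene Gzmb fell by 2.33 ± 0.38. In Treg against Tconv, Eomes fell by 2.28 ± 0.33, the death ligand Fasl fell by 2.16 ± 0.24, and Il2ra, the IL-2 receptor chain that also marks Treg, rose by 5.53 ± 0.13. The highest limma adjusted p of these was 0.00675, for Ifng against Tconv. Without the PD1hi value of experiment 6, the counts were 4 and 4 in PD1hi against Treg and 5 and 6 in Treg against Tconv.

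Of 12 IL-27 response genes, 6 rose and 1 fell in PD1hi against Tconv, 3 rose and 3 fell in PD1hi against Treg, and 9 rose and none fell in Treg against Tconv (9 and 1 at an unadjusted limma p under 0.05). Medians were 0.50, 0.03 and 1.74. The list shares Il10, Maf and Ahr with the IL-6 list and Tbx21, Irf1 and Cxcr3 with the IL-12 list. The inhibitory receptor Lag3 rose by 4.38 ± 0.49 in PD1hi against Tconv, by 2.13 ± 0.49 against Treg and by 2.25 ± 0.49 in Treg against Tconv. Tigit rose by 4.12 ± 0.21 in PD1hi against Tconv and by 3.53 ± 0.21 in Treg against Tconv, and Havcr2 by 2.92 ± 0.63 and 2.51 ± 0.63. The repressor Prdm1 fell by 2.25 ± 0.26 and the aryl hydrocarbon receptor Ahr fell by 2.49 ± 0.34 in PD1hi against Treg, where Tbx21 rose by 1.30 ± 0.41. The highest limma adjusted p of these was 0.0479, for Tbx21, which lost its call in 5 of 9 fits without 1 value (up to 0.171 without the Treg value of experiment 6). Havcr2 in Treg against Tconv lost it in 4 (up to 0.0727 without the Treg value of experiment 3), and Lag3 against Treg in 1 (0.0506, the same value left out).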

How the data were processed

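Per the labels' protocols, RNA of sorted splenic CD4 T cells was extracted with Trizol, depleted of ribosomal RNA and made into Ion Torrent libraries. Per the submitters' processing notes, the tools were Picard, HTSeq 0.5.4 and limma, and the builds listed are mm9, hg19 and GRCh37. No source used here names an aligner or strand setting. The authors deposited signal values, counts scaled by size factors, for 18649 genes in 13 libraries. Every deposited signal value equalled 1 plus whole reads divided by a library constant, within 0.001 reads, so 1 was subtracted to give the scaled count. No count test was run.

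The members, the gene lists and the tests were chosen with earlier results of these data known. Libraries that shared an experiment and a population were averaged after a check of 4 such pairs, each of which differed by more than sampling noise (chi-square of the reads 7.77 to 73.5 times its degrees of freedom). Genes with a mean of at least 10 were tested with limma 3.58.1 (R 4.3.3; variance trend on mean level), 2-sided, on log2(scaled count + 1), with all 3 populations in 1 fit and no block. The threshold was a Benjamini-Hochberg adjusted p under 0.05. On this log2 scale, changes of low genes are understated. The fit was tested on simulated data, which held no effect shared by populations of the same experiment. The simulated spread between values was set alike for all genes, so the simulation does not show how the fit does for the receptor genes. Exact permutation tests of ratios used SciPy 1.17.1.

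The titles name the experiment, which pairs the populations. Deviations of same-experiment values correlated at 0.197, 0.125 and 0.0187 for PD1hi and Tconv, 0.092, 0.169 and -0.07 for PD1hi and Treg, and 0.243, 0.218 and 0.298 for Treg and Tconv (experiments 3, 5 and 6).

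Named genes were the 6 receptor genes, Pdcd1 and Foxp3, the 4 called genes with the largest change per list and comparison, every called ligand, and the 3 genes most like each receptor gene. A few genes that this rule names are not reported here, though the counts of their lists include them. Exon lengths are unions of exons in GENCODE M21. RefSeq and GENCODE positions are on GRCm38, a later build than mm9. Alternatives changed the pseudocount, minimum level, scaling, averaging, block, samples in the fit and trend, or left out a library or value.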

Additional observations from a re-analysis of the deposited data

Results flagged for a closer look

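In 12 groups of 5 libraries (6 genes in Treg and Tconv), the farthest library was set against the others by its gap as a share of the range, with a critical value of 0.71; chance exceeds it in about 1 in 20 groups. It was exceeded in 2 groups. Il6st was at 3271 in the second Treg library of experiment 3 (share 0.748), below the other 4 Treg libraries, which ran from 5476 to 6218; the same library stood apart on the third principal component, with a score of 51.7. Il23r was at 53.3 in the second Tconv library of experiment 5 (share 0.744), above the other 4 Tconv libraries, which ran from 20.2 to 28.7; it rests on 50 reads. The cause was not tested in either.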

How the results depend on the processing

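Over 11 alternatives and the 9 fits that left out 1 value, the 18 results of the 6 genes gave 357 alternative values, of which 337 kept their side of the threshold, 8 lost the call and 12 gained it. No called value changed sign. Il23r in both comparisons with PD1hi, Il6st in PD1hi against Tconv and Il12rb2 in Treg against Tconv held in all that were run, except that Il23r was not tested at a minimum mean of 50, where 1 gene passed in PD1hi against Treg. Changed calls were Il12rb1 under the replicate block (0.73 in PD1hi against Tconv, -1.03 in PD1hi against Treg) and with the first library only (-1.12 in PD1hi against Treg), and Il6st in Treg against Tconv with equal totals (0.50), the first library only (0.51), the second Treg library of experiment 3 left out (0.54) and only the 2 groups in the fit (0.43). Pairing by the block changed no other call. Leaving out 1 value gave -1.21 to -0.78 (Il12rb2), 0.67 to 0.91 (Il6st) and 0.36 to 1.06 (Il12rb1) in PD1hi against Tconv. In PD1hi against Treg it gave 0.98 to 1.37 (Il12rb2), 0.20 to 0.48 (Il6st), 0.40 to 0.92 (Il6ra), -1.41 to -0.64 (Il12rb1) and 1 to 3 genes passing. In Treg against Tconv it gave 0.36 to 0.57 (Il6st), 1.37 to 2.10 (Il12rb1), 1 to 3 genes passing, and 494 to 1123 of all tested genes lower. With a pseudocount of 10, Il23r over Il12rb1 differed by -2.49 in PD1hi against Tconv and -0.73 in PD1hi against Treg, since its level in PD1hi is near the pseudocount. Equal totals moved the median of all genes in PD1hi against Tconv to 0.14 and the higher share of calls to 65.4%, against 54.4%. Of the other genes named, Osm (adjusted p = 0.0588) and Tbx21 (0.0949) in PD1hi against Treg and Jak1 (0.0827) in PD1hi against Tconv did not pass without the variance trend. Ebi3 (0.0518) and Tbx21 (0.05002) in PD1hi against Treg did not pass without the minimum level, Jak1 (0.0544) with only the 2 groups in the fit, and Lif in Treg against Tconv with duplicateCorrelation (0.0534) or the first library only (0.0731), all limma adjusted p. The few reads of Il23r limit its precision.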
